A study of Mus musculus with 3 samples.

Results

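Gene levels were compared between the first and the last stage of a series of ScxGFP-positive hindlimb cells, E11.5 and E15.5, and the genes that differed at least 2-fold over this whole span were described. Levels are FPKM (fragments scaled by transcript length and by the number of mapped fragments of the library), summed over the transcripts of a gene symbol. A difference is log2(FPKM + 1) at E15.5 minus the same value at E11.5, so that 1 on this scale is 2-fold. Of 22072 gene symbols, 21859 had a status of OK in both libraries, and 1820 of these differed at least 2-fold, 1542 being higher at E15.5 and 278 lower. The same rule gave 837 genes for E13.5 against E11.5 and 539 genes for E15.5 against E13.5. Of the 1820 genes, 1614 averaged at least 1 FPKM over the 3 libraries and are described here, and 206 did not reach this average. A scarce gene can pass that filter only through the library in which it is high, so the counts below describe these libraries.

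Each stage was represented by 1 library of GFP-positive cells sorted by flow cytometry from mouse embryos of mixed strain background. The E11.5 pool held 18 hindlimbs, the E13.5 pool 12 and the E15.5 pool 11, all carrying the ScxGFP reporter and none with another allele or treatment named in the labels. The reporter marks cells in which the Scx gene is active, and GFP can outlast the activity that made it. With 1 library per stage no difference has a replicate check and no p-value is given, and the stage cannot be told apart from the library or the pool. In sorted bulk cells, fewer cells of a type and less RNA per cell cannot be told apart either. Scx itself stood at 375, 410 and 213 FPKM in stage order, so the reporter's own gene was among the abundant ones throughout. Where 3 levels are given for a gene, they are in the order E11.5, E13.5, E15.5.

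Scleraxis, the transcription factor encoded by Scx, is found in the progenitors of tendon and ligament, which arise in the limb bud mesenchyme. These progenitors condense between muscle and cartilage, differentiate into tendon cells and deposit a matrix made mainly of type I collagen, with smaller collagens, proteoglycans and glycoproteins that organise the fibrils. Limb bud mesenchyme before that time expresses patterning factors, Hox genes and proteins typical of fast-growing embryonic cells.

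Nearly all compared genes of the tendon matrix and of the collagen chains were at least 2-fold higher at E15.5, 23 of 24 and 19 of 20. Of 35 limb patterning genes 13 were at least 2-fold lower and 2 higher, and of 25 genes of embryonic growth 10 were lower and 5 higher. These lists were chosen with earlier results of these data known. Among the 10939 genes compared, 1380 were at least 2-fold higher at E15.5 (12.6% of those compared) and 234 at least 2-fold lower (2.14%). Increases thus made up 85.5% of the 2-fold differences. The median difference of all compared genes was 0.07. Most of the large differences were increases: 398 genes were at least 4-fold higher and 34 at least 4-fold lower, and at 16-fold the counts were 57 and 1. Of the higher genes, 531 were under 1 FPKM at E11.5, whereas 71 of the lower genes were under 1 FPKM at E15.5. The higher genes had median levels of 1.58, 4.83 and 8.68 FPKM in stage order, and the lower genes 9.01, 4.60 and 2.51. When each library was rescaled to the mean of the 3 FPKM sums, the lower genes numbered 362, the share of higher genes was 76.3%, and the median difference of all compared genes moved to -0.06.

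**Figure D1:**
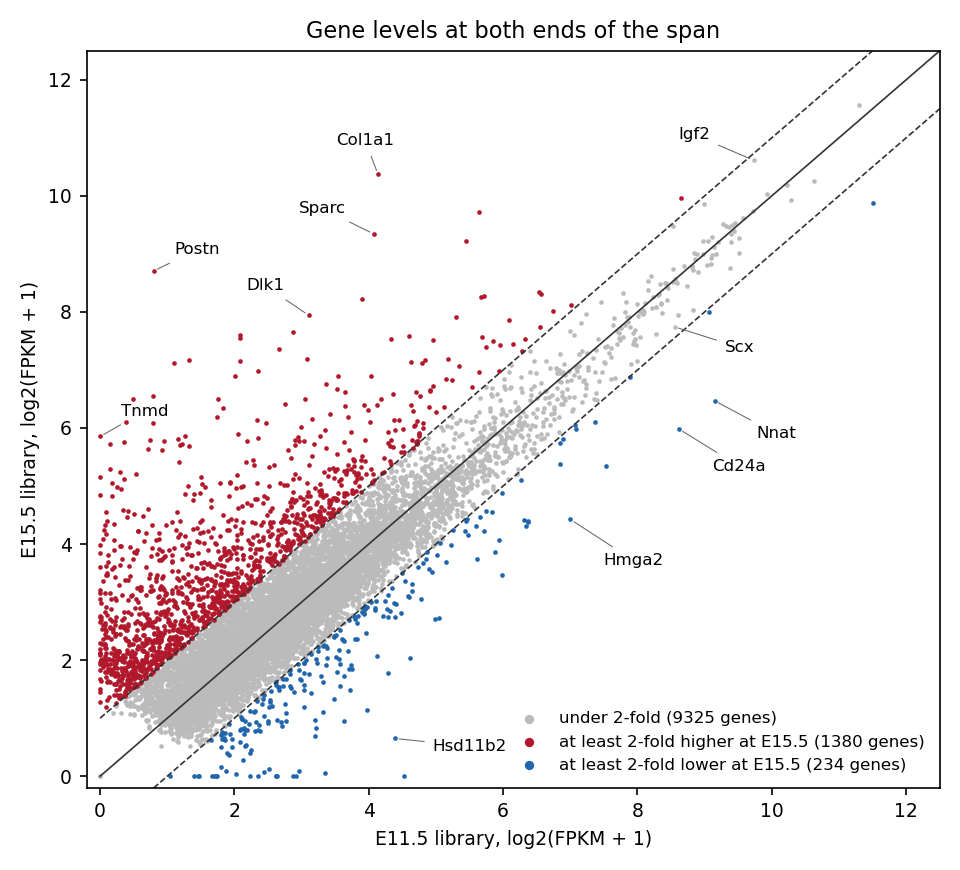
Level of each compared gene at E11.5 (horizontal axis) and E15.5 (vertical axis), both as log2(FPKM + 1), with 1 library per axis. The solid line marks equal levels and the dashed lines 2-fold; 1380 genes lie above the upper dashed line, among them Postn, Col1a1 and Sparc, and 234 below the lower one, among them Nnat and Hmga2.

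The changed genes were chosen by their levels at both ends, so the direction of their shares between the ends is fixed by that choice. The sizes are a description. Per length, the higher genes held 4.27%, 10.3% and 18.2% of the FPKM sum in stage order, whereas the lower genes held 5.58%, 3.04% and 1.61%. Across all genes, 20.5% of the FPKM sum was held by other genes at E15.5 than at E11.5. This exchange was spread over many genes, since the 10 with the largest gains made up 15.9% of all gains and the 100 with the largest gains 40.7%.

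Both chains of type I collagen led the gains. Col1a1 (NM_007742, mm9, chromosome 11, 94797584 to 94813170) was at 16.6, 215 and 1322 FPKM, and its share of the sum went from 0.0104% to 0.740%. Col1a2 (NM_007743, chromosome 6, 4455697 to 4491543) was at 48.9, 216 and 846 FPKM and gained 0.44 percentage points. Sparc, which encodes the collagen-binding protein osteonectin, gained 0.35 points and Col3a1, the type III collagen chain, 0.31 points. The growth factor gene Igf2, at 847, 993 and 1566 FPKM, gained 0.34 points without passing the 2-fold threshold. Gnas, an imprinted locus that encodes the stimulatory G protein alpha subunit, was at 400, 515 and 1001 FPKM.

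The largest loss in share was that of Mtrnr2l, listed at 2919, 1515 and 945 FPKM, but this entry closely resembles mitochondrial ribosomal RNA and its level is uncertain. Nnat, an imprinted gene for the membrane protein neuronatin (NM_010923, chromosome 2, 157385846 to 157388255), was at 567, 261 and 87.6 FPKM and lost 0.31 points. Cd24a, which encodes a small surface glycoprotein of immature cells (NM_009846, chromosome 10, 43298975 to 43304071), was at 393, 165 and 62.1 FPKM and lost 0.21 points. Several further losses came from abundant genes that stayed within 2-fold of their E11.5 level, such as Ppia, a prolyl isomerase gene, at 1245, 861 and 973 FPKM and the nucleolar protein gene Npm1 at 664, 405 and 434. Genes of this kind have near-identical copies in the genome, so their values are uncertain.

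Among the 100 most abundant genes of each end, 81 were shared and 19 were replaced. The entrants came from ranks between 106 and 10833. Postn, which encodes the matrix protein periostin (NM_001198765, chromosome 3, 54165029 to 54194963), went from rank 10833 to rank 47, at 0.737, 73.9 and 417 FPKM. Col1a1 moved from rank 1555 to rank 3, Sparc from 1637 to 21, and Dlk1, an imprinted gene for a membrane protein of the Delta family, from 3735 to 92. Closest to the list at E11.5 were Nedd4, a ubiquitin ligase gene (rank 106), the chaperone genes Hsp90b1 (118) and Hspa5 (131), Maged1 (139), Peg3 (154) and Ifitm2 (190). Also among the entrants were Egr1 (an immediate-early transcription factor), Col3a1, Col1a2, the secreted glycoprotein gene Fstl1, the membrane protein gene Itm2a, the intermediate filament gene Vim, the cartilage collagen gene Col2a1, the microfibril gene Mfap4 and Cdkn1c, which encodes a kinase inhibitor of the cell cycle.

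The genes that left had mostly small differences. Of the 19 entrants 15 differed at least 2-fold between the ends, but of the 19 that left only 3 did: Cd24a, Nnat and Hmgn1, which encodes a nucleosome-binding protein. Scx moved from rank 51 to rank 103, which took it just outside the list, with a difference of -0.81. The other genes that left included the histone genes H3f3a and H2afx, the cytokine gene Mif, the splicing factor genes Hnrnpa2b1 and Snrpg, and the ribosomal protein genes Rpl13a, Rpl35a and Rps2.

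**Figure D2:**
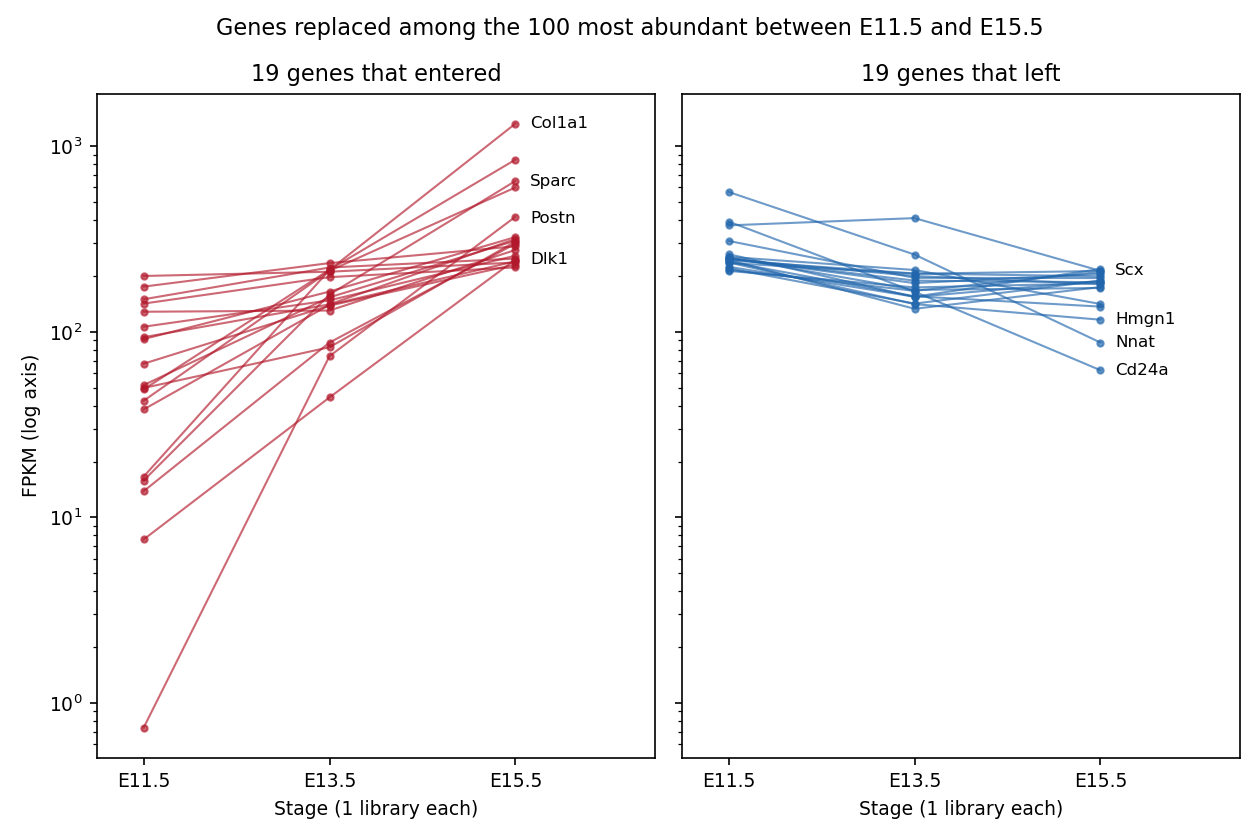
FPKM on a log axis at each stage (1 library each) for the 19 genes that entered the 100 most abundant between E11.5 and E15.5 (left panel) and the 19 that left (right panel), 1 line per gene. The entrants span 0.737 to 199.9 FPKM at E11.5 and 222 to 1322 at E15.5, whereas the leavers remain between 62.1 and 218 FPKM at E15.5.

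Ribosomal protein genes filled 56 places of the E11.5 list and 53 of the E15.5 list. Lars2, listed at 2529, 2072 and 3040 FPKM, was the most abundant entry at E15.5, and its level, like that of Mtrnr2l, is uncertain. The share of the FPKM sum held by the 100 most abundant genes was 30.6%, 26.2% and 28.2% in stage order. Shared genes numbered 15 of the first 20, 42 of the first 50, 149 of the first 200 and 363 of the first 500. The 51 newcomers to the first 200 included the matrix, collagen-handling and growth genes Bgn, Col6a1, Col6a2, Col12a1, Dcn, Mgp, Fn1, Igfbp5 and Serpinh1.

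Sorted into abundance classes bounded at 1, 10, 100 and 1000 FPKM, 18881 genes stood in the same class at both ends, 2089 at least 1 class higher at E15.5 and 889 at least 1 class lower. Moves over 2 classes or more were made by 93 genes upward and 3 downward. Col1a1 crossed from the class of 10 to 100 FPKM to that of 1000 or more, and Postn from under 1 to the class of 100 to 1000. A further 12 genes crossed from 1 to 10 FPKM to the class of 100 to 1000, among them Col12a1, Col5a1, Col6a1, Col6a2, Bgn, Dcn and Mgp. The 3 genes that moved 2 classes down were Hsd11b2, Car14 and the small nucleolar RNA Snord37, whose short transcript makes its value uncertain. Of the 2978 genes that changed class, 1307 differed at least 2-fold. The rest stayed under 2-fold on the log2(FPKM + 1) scale, which understates differences of genes near the border of 1 FPKM.

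**Figure D3:**
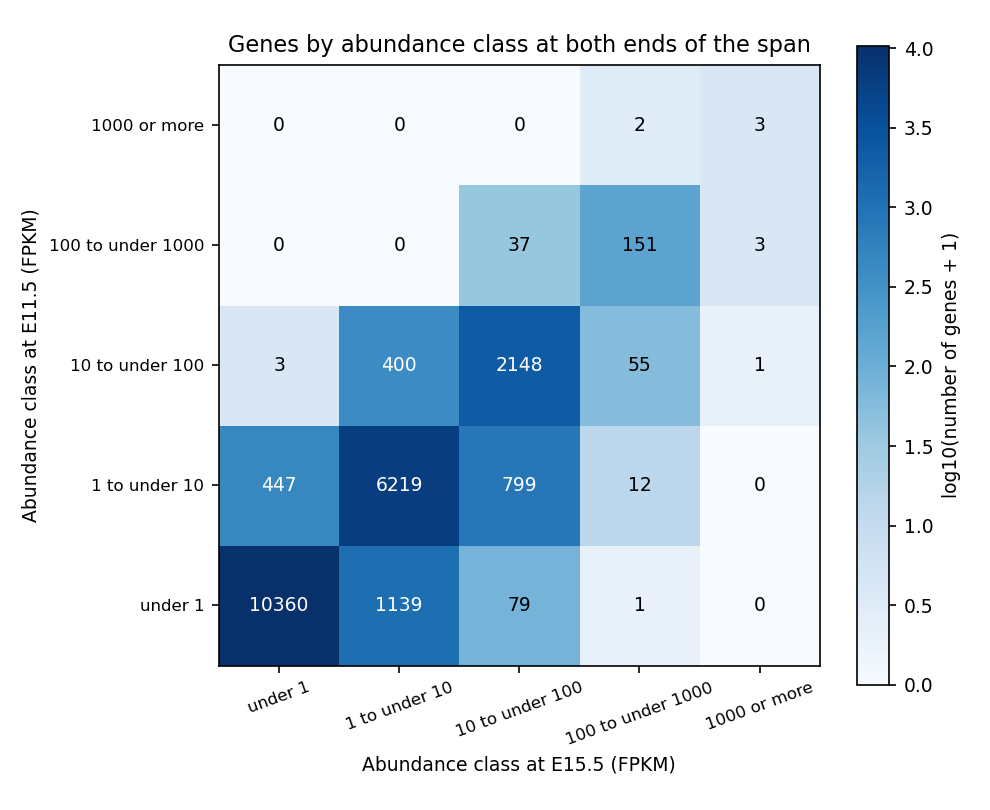
Number of genes by abundance class in FPKM at E11.5 (rows) and E15.5 (columns), 1 library per stage, with the shade giving log10(number of genes + 1). Cells right of the diagonal hold genes that stood in a higher class at E15.5; 79 genes went from under 1 FPKM to the class of 10 to 100, against 3 in the opposite direction.

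Tendon matrix genes formed the group with the widest differences. Of 24 compared members, 23 were at least 2-fold higher at E15.5 and none was lower, with a median of 4.19 beside 0.07 for all compared genes. As a group they held 0.0715%, 0.308% and 0.928% of the FPKM sum. The small leucine-rich proteoglycans, which bind collagen fibrils and regulate their width, were all on this side: Dcn was at 1.15, 53.9 and 139 FPKM, Fmod at 0.730, 21.3 and 92.2, and Bgn at 3.26, 27.1 and 187. Kera went from 0.646 through 12.6 to 48.7 FPKM and Ogn from 0.933 through 18.999 to 53.7. Their E15.5 levels were the highest of the 3 libraries in each case.

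The thrombospondins and other glycoproteins of the group followed. Thbs4, a pentameric glycoprotein gene of tendon and muscle attachments, was at 0.403, 14.5 and 89.1 FPKM. Tnmd, the gene of the tendon membrane protein tenomodulin, was listed at 0 in the first library, and its later levels were 7.57 FPKM (approximate 95% Poisson interval 6.76 to 8.44, counting error only) and 56.8 (54.8 to 59.0). Fndc1 was at 0.136, 1.53 and 32.2 FPKM and Comp, the cartilage oligomeric matrix protein gene, at 0.123, 1.42 and 7.30, so for this pair the later step was the larger on the log2 scale. Ptn, which encodes the growth factor pleiotrophin, was the compared member under 2-fold, at 66.9, 66.6 and 123 FPKM.

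Among 20 compared collagen chains 19 were at least 2-fold higher (median 3.61), and the summed share of the chains went from 0.103% through 0.593% to 2.09%. Fibril-forming chains included Col5a1, a type V chain that takes part in fibril initiation, at 7.44, 49.3 and 146 FPKM, and Col11a1 at 7.29, 35.7 and 89.2. Fibril-associated chains included Col12a1 at 4.12, 29.0 and 125 FPKM and Col14a1 at 0.103, 2.66 and 38.0. The beaded-filament chains Col6a1 and Col6a2 were at 1.49, 25.7 and 144 FPKM and at 3.23, 41.7 and 194. The basement membrane chains Col4a1 (7.47, 8.43 and 27.6 FPKM) and Col4a2 (6.34, 10.4 and 28.8) differed mainly over the later step. Col18a1, at 4.04, 1.74 and 6.12 FPKM, was the chain that stayed under 2-fold.

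Enzymes and chaperones that fold, modify and cross-link collagen were higher in 27 of 30 compared members (median 1.996), but by smaller amounts than the chains. The prolyl 4-hydroxylase subunits P4ha1, P4ha2 and P4ha3 were at 2.74, 7.96 and 13.8 FPKM, at 2.31, 6.25 and 14.9 and at 1.405, 8.51 and 16.6. Plod1, a lysyl hydroxylase gene, was at 5.64, 13.2 and 31.6 FPKM, Serpinh1, the gene of the collagen chaperone HSP47, at 35.3, 76.6 and 145, and Lox, the lysyl oxidase gene, at 0.669, 12.1 and 54.6. Creb3l1, a transcription factor gene linked to collagen secretion, was at 0.233, 11.0 and 37.0 FPKM. Adamts2, the protease that removes the N-propeptide of procollagen I, was at 0.0630, 2.755 and 10.1 FPKM. In 8 of the 27, among them P4hb (60.7, 93.3 and 172 FPKM) and Ppib (60.2, 74.7 and 125), neither step alone reached 2-fold.

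Of 17 compared genes of elastic fibres and microfibrils, 16 were higher (median 1.92). Elastin, Eln, was at 1.32, 11.1 and 51.8 FPKM, and the fibrillin genes Fbn1 and Fbn2 were at 4.10, 20.8 and 56.0 and at 25.2, 61.8 and 97.9. Mfap5 was listed at 0 at E11.5 and stood at 0.615 and 13.4 FPKM later. Fbln1, the gene of the glycoprotein fibulin-1, remained under 2-fold at 17.2, 13.8 and 24.3 FPKM. Of 19 compared matrix proteases and inhibitors 17 were higher (median 1.93), among them the serine protease gene Htra1 at 0.110, 6.07 and 52.1 FPKM, the membrane-bound matrix metalloproteinase gene Mmp14 at 14.3, 39.3 and 83.0 and the inhibitor gene Timp2 at 16.3, 45.2 and 83.0.

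To show the upstream sequence of genes that moved to opposite sides, the 120 bases before the transcription start listed by RefSeq (GRCm38.p6) are printed for 3 genes that were higher and 3 that were lower, each on the strand of its gene, 5′ to 3′, with every CG dinucleotide in capitals. CG reads the same on both strands.
Thbs4, chr13:92794819-92794938, minus strand, higher: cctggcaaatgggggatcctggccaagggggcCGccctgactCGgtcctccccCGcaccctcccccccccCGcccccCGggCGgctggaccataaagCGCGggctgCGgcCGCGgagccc
Col6a1, chr10:76726045-76726164, minus strand, higher: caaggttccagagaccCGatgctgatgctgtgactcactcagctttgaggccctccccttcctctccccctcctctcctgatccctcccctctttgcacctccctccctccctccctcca
Tnmd, chrX:133850888-133851007, plus strand, higher: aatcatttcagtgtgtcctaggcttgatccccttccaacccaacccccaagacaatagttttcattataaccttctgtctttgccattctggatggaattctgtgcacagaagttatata
Lix1, chr17:17402566-17402685, plus strand, lower: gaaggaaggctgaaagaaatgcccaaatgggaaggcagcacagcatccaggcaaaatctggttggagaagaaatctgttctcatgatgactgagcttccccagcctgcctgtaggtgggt
Nnat, chr2:157559958-157560077, plus strand, lower: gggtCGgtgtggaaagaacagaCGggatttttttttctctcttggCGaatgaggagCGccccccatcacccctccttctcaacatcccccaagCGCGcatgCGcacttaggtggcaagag
Car14, chr3:95904686-95904805, minus strand, lower: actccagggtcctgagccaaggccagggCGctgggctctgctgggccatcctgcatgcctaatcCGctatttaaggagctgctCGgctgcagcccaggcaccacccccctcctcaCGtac
Over the 250 bases before the start, CG occurred 19 times in Thbs4, 3 times in Col6a1 and 2 times in Tnmd, and 2, 12 and 10 times in Lix1, Nnat and Car14. Within these few genes, CG-rich and CG-poor sequences stood on both sides, which says nothing of the other changed genes. The printed genes were protein-coding, with large differences, a single listed promoter and at least 10 FPKM at the higher end. Of the 27025 genes in the RefSeq promoter table, compared here or not, 48.6% had 5 or fewer CG in these 250 bases. Among the 8674 compared genes with an entry (79.3% of those compared), 7.63% did. A comparison over all higher and lower genes was void, because the table matched 1040 of the 1380 higher genes (75.4%) and 159 of the 234 lower genes (67.9%).

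Secreted and membrane regulators of growth were mostly higher. Of 36 compared secreted growth factor modulators, 20 were at least 2-fold higher and 1 was lower (median 1.84). The insulin-like growth factor system was represented by Igf1, a ligand gene, at 15.4, 22.2 and 118 FPKM and by the binding protein genes Igfbp3 (7.94, 31.6 and 70.1), Igfbp5 (23.2, 102 and 191) and Igfbp7 (0.189, 3.90 and 30.7). Inhba, which encodes the activin A subunit, was at 0.420, 6.77 and 21.8 FPKM. The Wnt modulator genes diverged: Dkk3 was at 1.403, 9.85 and 27.9 FPKM and Sfrp4 at 0.132, 0.343 and 10.9, whereas Frzb was at 12.0, 3.11 and 2.5998. Agtr2, the type 2 angiotensin receptor gene (NM_007429, chromosome X, 21061752 to 21065957), was at 3.25, 41.5 and 141 FPKM.

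Among tendon regulators 10 of 18 compared members were at least 2-fold higher and 1 was lower (median 1.33). For 7 of the 10, the early step alone passed 2-fold. Tgfbr2, the type II receptor gene of TGF-beta signalling, was at 2.13, 12.6 and 23.9 FPKM, the ligand gene Tgfb3 at 3.27, 9.47 and 18.2, and Mkx, a tendon homeobox gene, at 1.44, 15.1 and 13.2. Egr1 was at 13.8, 87.5 and 298 FPKM, the largest difference of the list at 4.33. Egr1 is also a member of the immediate-early and dissociation stress list, of which 19 of 25 compared genes, Egr1 included, were higher (median 2.03). The summed share of that list was 0.164%, 0.296% and 0.505%, of which Egr1 held 0.00869%, 0.0564% and 0.167%. Other higher members were Fos (6.96, 32.4 and 63.4 FPKM) and Zfp36 (2.46, 8.77 and 32.1). The part of cell handling in these values was not tested. The lower regulator was Sox9, the factor of cartilage progenitors, at 56.2, 41.0 and 22.5 FPKM, while 16 of 21 compared cartilage genes were higher and Acan, the aggrecan gene, was at 0.0394, 4.73 and 17.9.

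Several of the large increases were those of imprinted genes and of a nuclear factor. Plagl1, an imprinted zinc finger gene (NM_009538, chromosome 10, 12810594 to 12851501), was at 6.30, 34.1 and 201 FPKM and Dlk1 at 7.61, 44.3 and 245. Nfix, a nuclear factor I gene (NM_001081982, chromosome 8, 87231498 to 87324239), was at 2.38, 35.0 and 89.2 FPKM. Peg3, an imprinted zinc finger gene, was at 128, 130 and 276 FPKM, a difference of 1.10 that was 0.93 after rescaling to the mean of the sums.

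Oncofetal and progenitor growth genes lay on both sides. Of 25 compared members 10 were at least 2-fold lower and 5 higher (median -0.58), and their summed share was 2.51%, 2.26% and 2.72%, to which Igf2, Dlk1 and Plagl1 contributed at E15.5. Nnat and Cd24a, given above, were among the 10. Hmga2, which encodes a chromatin architectural protein of embryonic cells (NM_010441, chromosome 10, 119798331 to 119913991), was at 127, 83.3 and 20.5 FPKM, so most of its difference lay in the later step. Its relative Hmga1 was at 185, 49.0 and 39.7 FPKM, with most of the difference in the early step. Lin28b, an RNA-binding protein gene that blocks let-7 maturation, was at 6.77, 0.961 and 0.0673 FPKM, Mycn at 8.24, 1.90 and 0.769, and Sox11 at 58.1, 45.9 and 13.498. Igf2bp1, whose product binds the RNA of Igf2 and other growth genes, was at 23.3, 11.52 and 7.46 FPKM.

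Limb patterning genes were lower in 13 of 35 compared members and higher in 2, Tbx5 and Spry4 (median -0.75). Lin28b and Mycn stand on this list as well as on the preceding one and are counted in both. Sall1, a zinc finger factor gene (NM_021390, chromosome 8, 91551143 to 91568061), was at 18.6, 8.76 and 2.42 FPKM, and Hand2, a factor gene of the posterior limb bud, at 30.7, 18.1 and 5.54. Lhx9 and Lhx2, LIM homeobox genes of the distal limb bud, were at 16.4, 6.07 and 3.22 FPKM and at 9.02, 3.31 and 2.09. Tbx4, the hindlimb T-box gene, was at 42.1, 25.1 and 17.7 FPKM and Pitx1, a hindlimb identity gene, at 52.0, 49.4 and 29.2, the latter under 2-fold. Values for Prrx1, a marker of limb mesenchyme, were 45.5, 59.0 and 39.8 FPKM.

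All 12 compared Hox genes of groups 9 to 13 in clusters A, C and D were below their E11.5 level, and 5 were at least 2-fold lower (median -0.86). These were Hoxd9 (10.9, 4.73 and 2.82 FPKM), Hoxa9 (12.9, 7.52 and 4.14), Hoxd11 (9.42, 9.12 and 3.08), Hoxd10 (11.2, 10.3 and 4.12) and Hoxa11 (12.0, 10.8 and 5.45). The paralogs of group 13, which pattern the autopod, were highest at E13.5, with Hoxd13 at 29.5, 47.8 and 16.5 FPKM and Hoxa13 at 11.4, 16.2 and 6.005. Hoxa10 differed by -0.87 and by -1.02 after rescaling to the mean of the sums.

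Chromatin genes were lower in 6 of 33 compared members and higher in none (median -0.50), and their summed share went from 1.58% through 1.18% to 0.923%. Hmgb3, a high mobility group gene, was at 81.6, 38.2 and 20.1 FPKM, and Nasp, the gene of a histone chaperone (NM_016777, chromosome 4, 116273657 to 116300556), at 113, 61.6 and 40.4. Ezh2, the methyltransferase gene of Polycomb complex PRC2, was at 37.1, 29.98 and 18.0 FPKM, a difference that just met the threshold. Of 46 compared cell cycle genes 39 were below their E11.5 level, but 3 were at least 2-fold lower: Bub1, a mitotic checkpoint kinase gene (14.2, 8.15 and 6.05 FPKM), Rrm2, a ribonucleotide reductase gene (42.6, 16.007 and 20.1), and Aurka, a mitotic kinase gene (12.7, 8.11 and 5.78). Mki67, the proliferation marker, stood at 44.6, 45.9 and 45.0 FPKM. Cell cycle inhibitors were higher in 8 of 14 compared members (median 1.06), with Cdkn1c, the imprinted gene of p57 (NM_009876, chromosome 7, 150644244 to 150646955), at 91.3, 165 and 324 FPKM and Gas1, a growth arrest gene, at 19.98, 57.2 and 61.2.

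Further genes among the large decreases stood on none of the lists. Hsd11b2, which encodes an enzyme that inactivates glucocorticoids (NM_008289, chromosome 8, 108042646 to 108047888), was at 19.98, 1.44 and 0.570 FPKM, a difference of -3.74. Snord37, listed at 0 at E15.5, was at 22.0 and 27.4 FPKM before. Lix1 was at 14.7, 2.40 and 1.20 FPKM, Car14, a membrane-bound carbonic anhydrase gene, at 11.3, 3.02 and 0.928, and Ldhb, the lactate dehydrogenase B gene, at 80.4, 39.0 and 18.8. Mecom, a zinc finger factor gene, was at 62.0, 21.7 and 10.02 FPKM, and Prdm16, a related factor gene, at 12.2, 6.15 and 1.80.

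Many genes reached 2-fold over the span although neither step alone did. For the 10928 compared genes with an OK status in all 3 libraries, 581 were higher over the span with neither step at 2-fold (5.32% of those compared), which was 42.2% of the higher genes. A further 178 passed 2-fold in both steps (1.63%), 425 in the early step only (3.89%) and 194 in the later step only (1.78%). Among lower genes 114 passed in neither step (1.04%, and 48.7% of the lower genes), 10 in both (0.0915%), 74 in the early step only (0.677%) and 36 in the later step only (0.329%). A gene under 2-fold in each step is under 4-fold over the span by construction. Within that range, the slow genes were 581 of the 980 higher genes (59.3%) and 114 of the 200 lower genes (57.0%).

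The size of a difference is in part fixed by these classes, since a gene past 2-fold in both steps is at least 4-fold different. In the higher of the end libraries, the median level of higher genes was 22.2 FPKM for those past 2-fold in both steps, 8.26 for the early step only, 7.01 for the later step only and 7.23 for neither. Among lower genes it was 21.0 FPKM for both steps, 6.59 for the early step only, 7.21 for the later step only and 10.6 for neither. The 10 genes that were lower in both steps included Nnat, Cd24a, Sall1, Mecom and Car14. At E13.5 the median higher gene had covered 56.8% of its difference (quartiles 42.0% and 71.1%) and the median lower gene 58.3% (39.7% and 81.0%). No order is read from this pair, which was 63.5% and 49.7% after rescaling to the mean of the sums. The E13.5 level lay between both ends in 1285 of 1378 higher genes and 206 of 234 lower genes. For genes past 2-fold in both steps or in neither, this position is fixed by construction. The scale of the share covered by E13.5 depends on the end libraries that chose the genes, so it is a description.

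**Figure D4:**
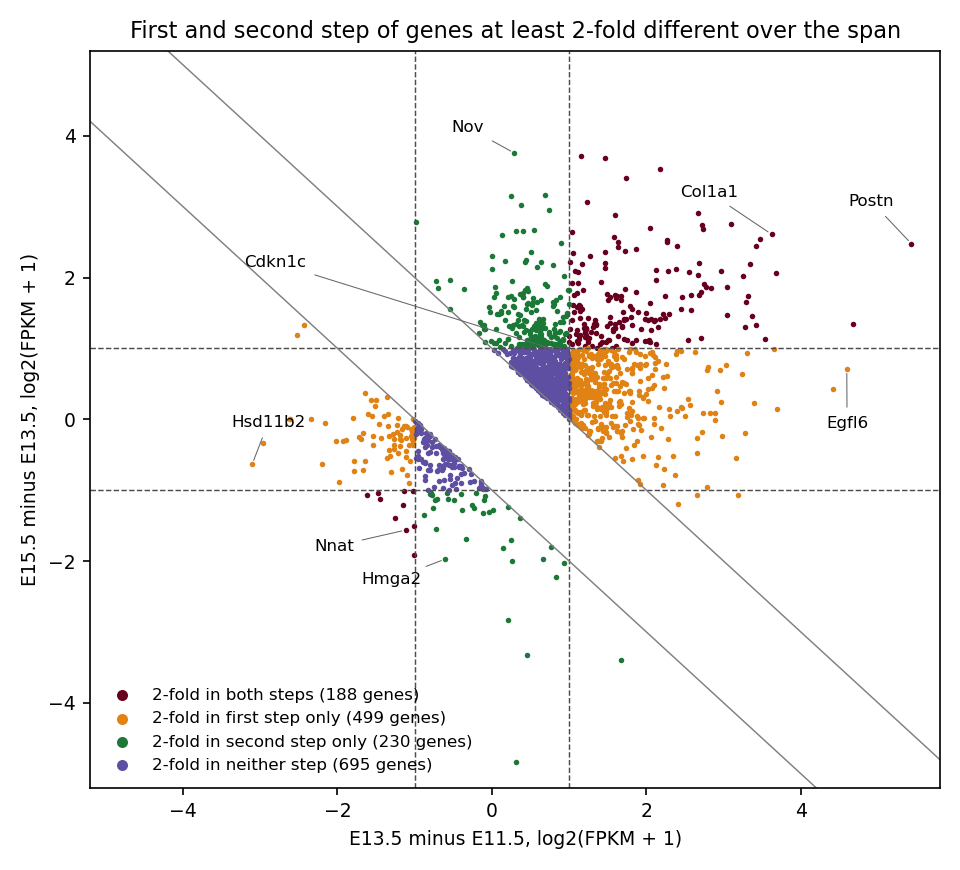
Difference over the early step (E13.5 minus E11.5, horizontal axis) against the later step (E15.5 minus E13.5, vertical axis), both on the log2(FPKM + 1) scale, for the genes at least 2-fold different over the span. Dashed lines mark 2-fold in 1 step and solid diagonals 2-fold over the span; 695 genes, 581 higher and 114 lower, fill the small triangles where neither step reached 2-fold, and Postn and Col1a1 lie far out on both axes.

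Of the 581 slow increases 216 reached 10 FPKM in the higher library, and the genes named here come from these. Besides Gnas and Cdkn1c, the slow genes with large differences included B4galt1, a Golgi galactosyltransferase gene (NM_022305, chromosome 4, 40751635 to 40801031), at 6.11 FPKM (5.73 to 6.51), then 12.498 (11.9 to 13.1), then 25.5 (24.7 to 26.4). Spry1, an inhibitor gene of receptor tyrosine kinase signalling, was at 3.26, 7.51 and 14.3 FPKM. Itga5, the gene of the fibronectin receptor alpha chain, was at 5.83, 12.54 and 21.3 FPKM, Emilin1, an elastic fibre gene, at 10.3, 21.3 and 37.1, and Glt25d1, a collagen galactosyltransferase gene, at 8.17, 15.54 and 30.2. The approximate 95% counting intervals of B4galt1 are given in brackets and leave out the variation between embryos and preparations. The gene was chosen for its large difference in these same libraries, so the lack of overlap between the intervals is no further evidence.

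Of 37 compared secretory pathway genes 14 were at least 2-fold higher, none was lower and the median was 0.85. In 9 of the 14 neither step reached 2-fold, beside 42.2% of all higher genes. Among all higher genes under 4-fold the share was 59.3%, and the share of this list in that range was not counted. The coat and translocation genes Sec31a (24.6, 41.7 and 64.8 FPKM), Sec61a1 (25.9, 34.6 and 57.1) and Sar1a (33.9, 45.3 and 81.2) were among the 9, as was the cargo receptor gene Lman1 (13.8, 25.1 and 42.5). Faster members were Sec24d, a coat gene needed for procollagen export, at 1.71, 9.27 and 18.5 FPKM and Kdelr3, a retrieval receptor gene, at 1.21, 7.95 and 22.6. The abundant chaperone genes Hspa5 (150, 222 and 248 FPKM) and Hsp90b1 (175, 235 and 289) stayed under 2-fold. Summed over the list, the share went from 0.734% through 1.01% to 1.17%.

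Lysosomal genes showed the slow form in most of their increases. This list of 51 genes was drawn up after Psap, Ctsl and Hexa had been seen among the slow increases, so its count is not independent of that choice. Of 49 compared members 23 were at least 2-fold higher and none was lower (median 0.99), and 19 of the 23 passed 2-fold in neither step. Such genes were 42.2% of all higher genes and 59.3% of the higher genes under 4-fold. How many of the 23 were under 4-fold was not counted. The cathepsin genes Ctsl, Ctsb and Ctsd were at 8.71, 16.5 and 31.9 FPKM, at 8.21, 12.2 and 21.8 and at 10.5, 12.97 and 25.9. Psap, which encodes the precursor of the saposins, was at 10.6, 20.1 and 38.4 FPKM, and Hexa, a hexosaminidase subunit gene, at 4.38, 9.46 and 16.5. The membrane protein genes Lamp1 (25.04, 37.9 and 53.4 FPKM), Lamp2 (12.7, 24.5 and 36.8) and Cd63 (36.9, 62.4 and 112) were of the same kind.

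Slow decreases included receptors, RNA-binding proteins and chromatin factors. Plxnb1, a semaphorin receptor gene (NM_172775, chromosome 9, 108997950 to 109022429), was at 10.5, 5.29 and 2.48 FPKM, and Fli1, an ETS factor gene, at 21.4, 11.3 and 6.04. Prom1, which encodes the membrane protein prominin-1, was at 18.5, 12.3 and 5.68 FPKM, Rcc2, a mitosis and adhesion gene, at 51.5, 27.7 and 17.7, and Snrpn, an imprinted splicing gene, at 13.2, 6.32 and 4.14. Hmgb2, a high mobility group gene, was at 62.4, 32.6 and 28.4 FPKM. Each of these genes was highest in the first library and lowest in the last by construction, since the span reached 2-fold and neither step did.

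**Figure D5:**
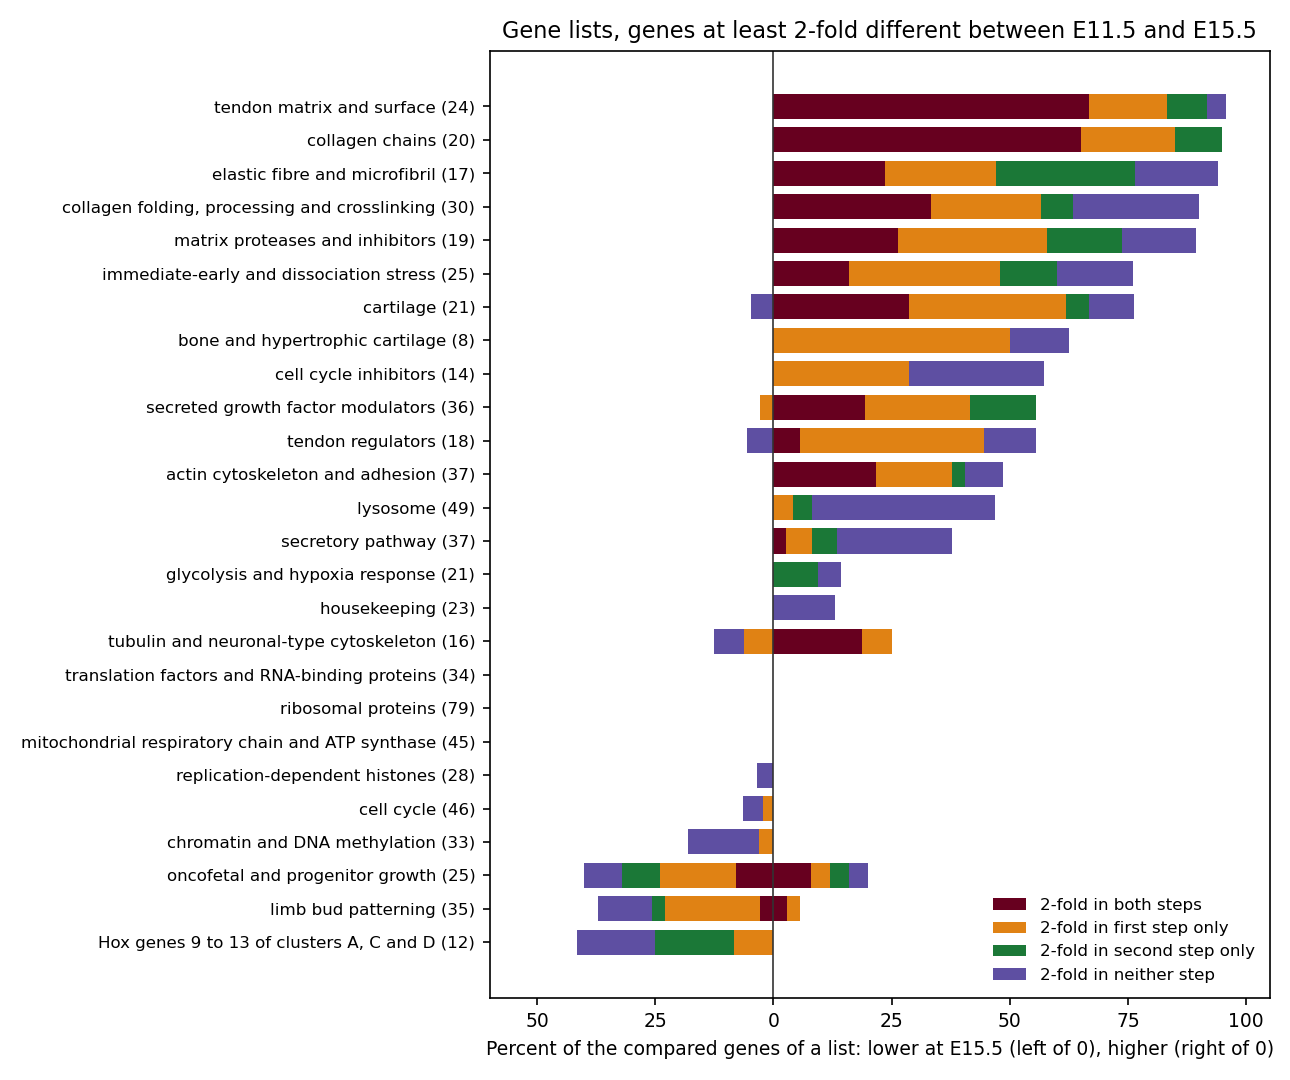
Share of the compared genes of each list (number of compared genes in brackets) that were at least 2-fold lower (left of 0) or higher (right of 0) at E15.5, in percent, coloured by the step in which 2-fold was passed. Both-step increases make up 16 of 24 tendon matrix genes and 13 of 20 collagen chains. Lysosomal increases are mainly of the neither-step kind, on a list drawn up after some slow members had been seen. The ribosomal, translation and mitochondrial lists have no bar.

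Some abundant groups had no member past 2-fold in either direction. This was so for 79 compared ribosomal protein genes (median -0.04), 34 translation factor and RNA-binding protein genes (median -0.26) and 45 genes of the mitochondrial respiratory chain and ATP synthase (median -0.21). The ribosomal protein genes held 18.2%, 16.1% and 16.01% of the FPKM sum in stage order. Of 37 compared genes of the actin cytoskeleton and adhesion, 18 were at least 2-fold higher and none was lower (median 0.98). Actb, the beta-actin gene, was at 668, 572 and 648 FPKM, while Vim was at 51.6, 153 and 310 and the calcium-binding protein genes S100a10, Anxa2 and S100a11 were at 2.35, 20.6 and 71.6, at 1.409, 22.5 and 57.1 and at 19.2, 76.0 and 185.

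Some lists of markers of other cells were mostly higher at E15.5, and others were mixed. Of 15 compared genes of differentiated skeletal muscle, 14 were at least 2-fold higher, and the list held 0.0102%, 0.0617% and 0.168% of the FPKM sum, its largest E15.5 level being that of Actc1, the cardiac actin gene, at 5.35, 39.3 and 164 FPKM. Myog, a muscle differentiation factor gene, was at 0.880, 2.72 and 12.2 FPKM. Of 7 compared muscle progenitor markers, 3 were at least 2-fold higher and 3 were below their E11.5 level (median 0.43). Smooth muscle and pericyte genes were higher in 7 of 9 (0.0174%, 0.0284% and 0.0414%), with Acta2 at 2.20, 12.1 and 18.5 FPKM. Of 15 erythroid markers 9 were under 1 FPKM in every library. Of the 6 compared, 3 were higher and the other 3 below their E11.5 level, with the beta-globin gene Beta-s at 0.308, 4.93 and 67.4 FPKM. Of 15 endothelial markers 10 were under 1 FPKM in every library. All 3 compared were higher, the largest, Eng, reaching 3.08 FPKM. Higher too were 2 of 4 compared epidermis, 1 of 2 Schwann cell, 2 of 4 neuron and 4 of 9 dermal markers, and none of these was at least 2-fold lower. Of 15 leukocyte markers 14 were under 1 FPKM in every library, and the 1 compared differed by -0.47. Without all genes of these marker lists, 1342 genes were higher and 234 lower. The part of other cells in the matrix values was not tested.

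In all libraries, 10364 to 11132 genes reached 1 FPKM, on about 12600000 to 17700000 reads estimated from the coverage. A transcript of 2000 bases at 10 FPKM then had a counting error of 3.59% to 3.96%, so for genes above that level counting was a small part of a 2-fold difference. The threshold itself separated close neighbours. Just inside it were Phactr2 at 7.27, 6.80 and 15.6 FPKM and Rnasek at 24.3, 24.7 and 49.6, and just outside it Akt1, a kinase gene, at 16.8, 23.6 and 34.6 and Lats1, a kinase gene of the Hippo pathway, at 6.93, 10.8 and 14.8. On the lower side Prdx6, a peroxiredoxin gene, at 21.6, 10.9 and 10.3 FPKM, lay just inside and the splicing gene Snrpe, at 73.2, 47.1 and 36.1, just outside.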

How the data were processed

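RNA of sorted ScxGFP-positive hindlimb cells was sequenced after RNeasy micro extraction and NuGEN Ovation amplification, per the labels' protocols, in 1 library per stage. The authors deposited FPKM for each RefSeq transcript with a status, and a coverage signal per the file headers, used here only to estimate depth. The submitters' processing notes name Bowtie 0.12.7, TopHat 1.4.1 and build mm9. Strand setting and annotation release were not given in the sources used here, so overlapping and near-identical genes are uncertain, and amplification noise was not measured. FPKM were summed per symbol and compared on the log2(FPKM + 1) scale, among genes with a status of OK at both ends and a mean of at least 1 FPKM. The pseudocount of 1 understates differences of low genes. One read was taken as 41.5 covered bases, estimated from the files, so Poisson intervals (95%) are approximate and cover counting error only.

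With 1 library per stage no test was made. The rule for genes that could be named took in the 30 largest increases and decreases with at least 10 FPKM at the higher end and the 20 most abundant genes of each end. It also took in genes with the 15 largest rank shifts into and out of the first 100 and the 15 largest slow changes each way. Added to these were up to 4 largest and the 2 most abundant genes of each list, 3 genes on each side of the threshold, and Scx. Not all of these genes are printed. Further list members were named after their values were seen. The members and the 35 gene lists (898 entries, 889 matched) were chosen with earlier results of these data known, and the lysosome list was added later. The calling script was tested on simulated data. Python 3.11.15, pandas 2.3.3 and numpy 2.4.6 were used.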

Additional observations from a re-analysis of the deposited data

How the results depend on the processing

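No paired analysis was possible because each stage has 1 library, and leaving out a library would end the comparison. With a pseudocount of 0.1 FPKM, 431 genes were lower, 81.0% of the changed genes were higher, 211 lower genes passed 2-fold in neither step, and the shares of the difference reached by E13.5 were 61.7% and 53.0% for higher and lower genes. Without the filter on the mean, these shares were 55.1% and 64.4%. At a minimum mean of 5 FPKM, 712 genes were higher and 124 lower, and 281 and 71 of them passed in neither step. Rescaled to the mean of the sums, 362 genes were lower, 76.3% of the changed genes were higher, 204 lower genes passed in neither step, and the shares reached by E13.5 were 63.5% and 49.7%. Size factors gave 82.4% higher, and transcript rows as deposited gave 356 lower genes and 81.7% higher. Without ribosomal protein genes, the 100 most abundant held 24.6% at E11.5 and 23.4% at E15.5, and 23.5% of the sum changed hands. Without Lars2 and Mtrnr2l, an alternative chosen after seeing the data, they held 28.4% and 26.8%. The shares reached by E13.5 were 57.5% and 54.1% at a minimum mean of 5 FPKM, and 57.7% and 54.2% with transcript rows as deposited. Whether higher or lower genes had covered more of their difference by E13.5 thus changed in these settings, with the pseudocount and with rescaling. Under rescaling 269 of 281 named genes kept their side of 2-fold, 6 passed it anew and 6 no longer did. Of 33 list medians, those of housekeeping genes (0.02 to -0.14) and tubulin genes (0.07 to -0.09) crossed 0 under rescaling, and 9 moved by 0.5 or more with the pseudocount of 0.1.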

Other observations

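Long noncoding RNAs stood on both sides of the span. The maternally expressed imprinted RNAs Meg3 and Rian, which lie in the same imprinted domain as Dlk1, were at 27.5, 85.5 and 144 FPKM and at 26.6, 77.3 and 137 in stage order, differences of 2.35 and 2.32. Hoxa11as, a transcript antisense to Hoxa11, was at 17.5, 16.1 and 5.81 FPKM beside 12.0, 10.8 and 5.45 for Hoxa11. Since no strand is stated, reads of this pair cannot be told apart. Mir17hg, the host transcript of a microRNA cluster of growing cells, was at 3.69, 1.87 and 0.317 FPKM. Of the 234 lower genes 13 were small nucleolar RNAs and 11 microRNA entries, and of the 1380 higher genes 6 and 10. Among all 10939 compared genes there were 57 and 51. These transcripts are short and their FPKM uncertain. Without genes whose longest transcript is under 200 bases, an alternative chosen after seeing the data, 1364 genes were higher and 209 lower.

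Among tubulin genes, Tubb6, Tubb2a and Tubb2b were at 1.88, 11.4 and 31.9 FPKM, at 2.05, 7.69 and 17.8 and at 4.84, 15.7 and 18.5. The more abundant Tubb5 and Tuba1b stayed under 2-fold at 327, 239 and 252 FPKM and at 345, 257 and 295. Ngfr, the low-affinity neurotrophin receptor gene and a member of the Schwann cell and neural crest marker list, was at 1.62, 7.06 and 26.0 FPKM.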
